A study of Homo sapiens with 11 samples.

Results

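The genes described here are 41 genes of the hypoxia response and of glycolysis, chosen by name, out of 61542 genes that could be read from the tables. They fall into 6 factors of the HIF pathway, 12 HIF targets outside glycolysis, 20 glycolytic enzymes and regulators of the step from glucose to pyruvate or lactate, and 3 transporters of glucose or lactate. The samples are cultures of SK-MEL-103, a human melanoma line, whose RNA was sequenced after 6 days in the solvent DMSO (n = 4), in 0.25 µM etoposide (n = 4) or in 0.5 µM tozasertib (n = 3, replicates 1, 2 and 4). The medium was changed and the drugs were renewed at day 3. Etoposide poisons topoisomerase II and leaves DNA breaks, tozasertib inhibits the Aurora kinases that drive mitosis, and the study used both as triggers of senescence, in which cells stop dividing for good. All samples come from 1 cell line, none was labelled as kept in low oxygen, and nothing in the sources says whether replicates were separate cultures, so the p-values cover only sample-to-sample spread, part or all of which may be technical. The study's list of seeding densities gives fewer cells for growing than for senescent cultures of this line, so drug and seeding density cannot be told apart.

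Cells sense oxygen through prolyl hydroxylases (EGLN1, EGLN3), which mark the alpha subunits of the hypoxia-inducible factors (HIF1A, EPAS1) for removal by the ubiquitin ligase subunit VHL when oxygen is present. Without oxygen the alpha subunits persist and pair with ARNT. The pair binds short DNA cores such as ACGTG at genes for blood vessel growth, pH control, autophagy of mitochondria and glycolysis. HIF protein is set mostly by its breakdown, so the mRNA of HIF1A does not give its activity. Glycolysis turns glucose into pyruvate, and LDHA turns pyruvate into lactate, which SLC16A3 exports. PDK1 holds pyruvate back from the mitochondria by inhibiting pyruvate dehydrogenase. Tumour cells, melanoma among them, often run this pathway at a high rate even in oxygen.

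Levels are in CPM (a gene's reads for each 1000000 reads on tested genes, after TMM scaling) and follow the order of replicates 1 to 4 (1, 2 and 4 for tozasertib). Samples held 27882689 to 56534763 reads, and 40 of the 41 genes had enough reads to be tested. The mRNA of the arrest marker CDKN1A rose by a log2 fold change of 1.62 ± 0.06 (SE) with etoposide and 1.71 ± 0.06 with tozasertib, and the proliferation marker MKI67 had log2 fold changes of -2.22 ± 0.17 and -2.91 ± 0.20. Of 10 melanocyte lineage markers, 5 had enough reads to be tested. Their summed level was 516 to 583 CPM in DMSO, 349 to 369 CPM with etoposide and 417 to 425 CPM with tozasertib, most of it from the lineage factor SOX10, and PAX3 and MITF were present too. MLANA had 0 reads in all samples and the pigment genes TYR, TYRP1 and DCT stayed below 1 CPM. The summed level of 8 fibroblast markers was 28.0 to 32.2 CPM in DMSO, 138 to 155 CPM with etoposide and 120 to 125 CPM with tozasertib. LUM and COL1A1 made up most of it, whereas the fibroblast markers COL3A1, DCN and THY1 stayed below 1 CPM in every sample. The summed level of 7 immune markers, nearly all of it from CD68, was 56.7 to 69.0 CPM in DMSO, 35.6 to 42.6 CPM with etoposide and 43.8 to 48.8 CPM with tozasertib, and the leukocyte marker PTPRC stayed below 1 CPM. For 7 keratinocyte markers, 4 of them tested, the sum was 48.5 to 68.5 CPM in DMSO, 56.3 to 59.0 CPM with etoposide and 50.7 to 59.4 CPM with tozasertib. For 6 endothelial markers it was 1.11 to 1.40, 1.20 to 1.785 and 1.40 to 1.57 CPM. Mitochondrial genes took 2.08 to 3.74% of the reads of DMSO samples, 3.46 to 5.30% of those of etoposide samples and 3.80 to 4.78% of those of tozasertib samples. DMSO replicate 1 stood apart by gene length: the rank correlation across genes of its deviation from the group mean with gene length was -0.48, against 0.13, 0.22 and 0.40 in DMSO replicates 2, 3 and 4, and between -0.08 and 0.11 in the drug samples. It was the highest DMSO sample for 13 of the 20 glycolytic enzymes. The part of the marker and mitochondrial differences in the results was not tested. For gene length, the calls were also made without DMSO replicate 1, without DMSO replicates 1 and 4, on length-scaled counts and with a gene-length offset.

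Both drugs were compared with DMSO to ask how the hypoxia and glycolysis genes stood in cells made senescent. In both comparisons most of these genes were lower, and the fall ran through the whole glycolytic chain, while the glucose transporter SLC2A1, the collagen-modifying enzyme P4HA2, the muscle-type phosphofructokinase PFKM and the HIF inhibitor HIF1AN were higher. With etoposide, 33 of the 40 tested members fell, where 30.6% of all 17033 tested genes did, and 4 rose, where 27.7% of all genes did (edgeR quasi-likelihood test, adjusted p below 0.05). With tozasertib, 32 members fell, against 29.4% of all genes, and 4 rose, against 29.9% of all genes. The members' median log2 fold change was -0.91 with etoposide and -0.89 with tozasertib, and the median over all genes was -0.01 and 0.02. At least 2-fold falls were found for 16 members with etoposide, where 7.62% of all genes fell as far, and for 16 with tozasertib, where 7.26% did. SLC2A1 and P4HA2 rose at least 2-fold with etoposide, as 10.2% of all genes did, whereas the largest rise with tozasertib, that of SLC2A1, was 1.9-fold, and 12.2% of all genes rose at least 2-fold there. Without DMSO replicates 1 and 4 the counts were 33 lower and 4 higher with etoposide, and 33 lower and 4 higher with tozasertib. The 2 comparisons share the DMSO samples and are therefore not independent of each other. In bulk RNA, fewer cells that express a gene and less of its RNA per cell cannot be told apart.

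**Figure D1:**
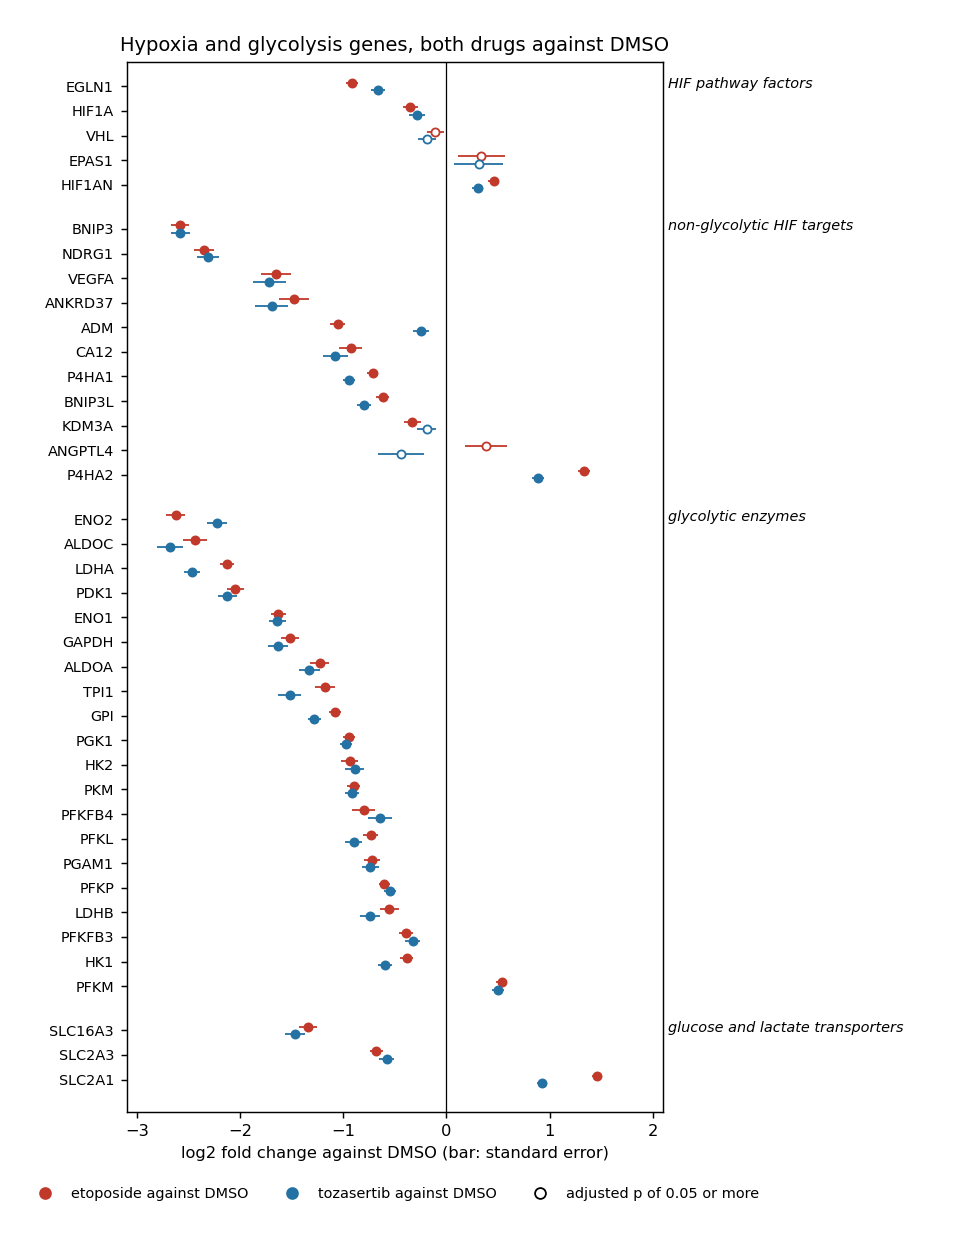
Log2 fold change against DMSO (x axis, bar for the standard error) of 39 hypoxia and glycolysis genes in 4 groups, with etoposide in red and tozasertib in blue; open circles did not pass an adjusted p of 0.05. CA9, nearly without reads in the drug samples, and EGLN3, too low to be tested, are not drawn. All glycolytic enzymes but PFKM lie left of 0 for both drugs, and SLC2A1, P4HA2, PFKM and HIF1AN lie right of it.

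Among the HIF pathway factors the changes were modest. HIF1A, the alpha subunit of HIF-1, was read at 275, 328, 344 and 351 CPM in DMSO, at 237, 257, 264 and 261 CPM with etoposide and at 261, 268 and 270 CPM with tozasertib. In CPM all 7 drug samples lay below the 4 DMSO samples. On the TPM scale, which corrects for transcript length, the groups overlapped. HIF1A stood there at 155 to 228 in DMSO, with replicate 1 the lowest, at 151 to 174 with etoposide and at 147 to 180 with tozasertib. Its log2 fold change was -0.35 ± 0.07 with etoposide (adjusted p = 0.00105) and -0.29 ± 0.08 with tozasertib (adjusted p = 0.00684). With library size as the only scaling the tozasertib call was lost (adjusted p = 0.0720). EPAS1, the alpha subunit of HIF-2, was read at 9.57, 17.9, 18 and 22.8 CPM in DMSO, at 16.4, 18.7, 25.2 and 26.3 CPM with etoposide and at 20.1, 17.6 and 25.8 CPM with tozasertib. The groups overlapped, with DMSO replicate 1 the lowest sample of all, and neither change passed the test (log2 fold change 0.34 ± 0.23, adjusted p = 0.216, and 0.31 ± 0.24, adjusted p = 0.284). The etoposide difference did pass without the filter on low counts (0.33, adjusted p = 0.0169) and with a replicate block and gene-length offset (0.30, adjusted p = 0.0343).

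VHL, which binds hydroxylated HIF alpha subunits, was read at 162, 134, 126 and 122 CPM in DMSO, at 123, 124, 130 and 129 CPM with etoposide and at 117, 115 and 126 CPM with tozasertib. In CPM, DMSO replicate 1 lay above all other samples and the rest overlapped. VHL did not pass the test with etoposide (-0.11 ± 0.08, adjusted p = 0.270) or tozasertib (-0.19 ± 0.09, adjusted p = 0.0754). The tozasertib difference did pass, as a fall, without DMSO replicate 4 (adjusted p = 0.0291) and with a gene-length offset (adjusted p = 0.0381). The direction was the opposite in TPM, where every drug sample exceeded every DMSO sample. There the highest DMSO value of VHL was 68.2 (replicate 4), and its lowest drug value was 69.0 (etoposide replicate 2). That TPM difference was not tested, so the direction of VHL depended on the scale. EGLN1, the main HIF prolyl hydroxylase, was read at 64.3, 71.1, 70.3 and 67.7 CPM in DMSO, at 33.8, 38.4, 37.9 and 34.7 CPM with etoposide and at 41.5, 44 and 44 CPM with tozasertib. Each drug group lay wholly below DMSO, and EGLN1 fell by 0.92 ± 0.06 on the log2 scale with etoposide (adjusted p = 3.16e-08) and by 0.66 ± 0.07 with tozasertib (adjusted p = 1.64e-06). HIF1AN, an asparagine hydroxylase that blocks the activation domain of HIF alpha, was read at 108, 106, 108 and 107 CPM in DMSO, at 142, 141, 155 and 153 CPM with etoposide and at 128, 132 and 138 CPM with tozasertib. It rose by 0.46 ± 0.05 (adjusted p = 4.55e-06) and 0.30 ± 0.05 (adjusted p = 0.000340) on the log2 scale, with no overlap between drug and DMSO samples. EGLN3, an inducible hydroxylase, was read at no more than 0.175 CPM in any sample and was not tested.

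Among the HIF targets outside glycolysis was CA9, with the steepest fall of all members. CA9 (ENSG00000107159.14, chr9:35673928-35681159, plus strand, GRCh38), a carbonic anhydrase on the cell surface that is used as a marker of hypoxia, was read at 15.4, 20.2, 13.2 and 13.9 CPM in DMSO, at 0, 0, 0.0282 and 0 CPM with etoposide and at 0, 0.0350 and 0.0272 CPM with tozasertib. DMSO held 1851 reads of CA9 in all, the 4 etoposide samples 1 read and the 3 tozasertib samples 2 reads. Scaled for depth, the level in DMSO was 2116 times that with etoposide (95% exact interval 379 to 83637) and 964 times that with tozasertib (267 to 7968), where the intervals cover counting error only. CA9 passed the test in both comparisons (adjusted p = 1.36e-10 and 3.94e-10). It had enough reads to be tested through the DMSO samples alone, so these p-values rest on the group where it is high. CA12, a related carbonic anhydrase, was read at 15.8 to 20.1 CPM in DMSO, and it fell by 0.93 ± 0.11 with etoposide and by 1.08 ± 0.13 with tozasertib on the log2 scale.

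VEGFA, the secreted growth factor for blood vessels, was read at 229, 307, 252 and 281 CPM in DMSO, at 102, 98.9, 67.4 and 72.2 CPM with etoposide and at 89.3, 86.8 and 67.5 CPM with tozasertib. All 7 drug samples lay below the lowest DMSO sample. The log2 fold change was -1.65 ± 0.14 with etoposide (adjusted p = 4.86e-07) and -1.72 ± 0.16 with tozasertib (adjusted p = 9.84e-07). NDRG1, a stress-induced gene that is among the most used hypoxia markers, was read at 253, 339, 320 and 371 CPM in DMSO, at 63.1, 61.1, 63.4 and 64.9 CPM with etoposide and at 64.1, 61.9 and 67.5 CPM with tozasertib. The drug samples were within a few CPM of each other, and NDRG1 fell 5.09-fold with etoposide (adjusted p = 4.75e-10) and 4.97-fold with tozasertib (adjusted p = 1.41e-09). BNIP3, a receptor for the autophagy of mitochondria, was read at 214, 206, 201 and 160 CPM in DMSO, at 31.7, 32.2, 34.5 and 32.1 CPM with etoposide and at 33.0, 31.4 and 33.6 CPM with tozasertib. It fell 5.99-fold with etoposide (adjusted p = 7.13e-11) and 5.98-fold with tozasertib (adjusted p = 1.88e-10), and its paralogue BNIP3L fell less, by 0.62 ± 0.06 and by 0.80 ± 0.07 on the log2 scale.

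ANKRD37, an ankyrin repeat protein and common HIF target, was read at 7.28 to 9.81 CPM in DMSO, at 2.73 to 3.69 CPM with etoposide and at 2.24 to 3.18 CPM with tozasertib, and it fell with both. Its log2 fold changes were -1.48 ± 0.14 and -1.70 ± 0.16. The collagen prolyl 4-hydroxylase subunits moved apart. P4HA1 fell by 0.71 ± 0.05 with etoposide and by 0.95 ± 0.06 with tozasertib on the log2 scale. P4HA2 was read at 60.6, 62.3, 61.0 and 58.7 CPM in DMSO, at 146, 157, 155 and 154 CPM with etoposide and at 105, 108 and 124 CPM with tozasertib, and it rose 2.52-fold (adjusted p = 8.61e-10) and 1.85-fold (adjusted p = 6.19e-08). On the TPM scale, which corrects for transcript length, P4HA2 made up 43.8% ± 1.22 (SD) of the summed level of both genes in DMSO, 76.9% ± 1.30 with etoposide and 73.9% ± 1.45 with tozasertib.

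ADM, which encodes the vasodilator peptide adrenomedullin, separated the drugs. It was read at 164, 147, 139 and 132 CPM in DMSO, at 70.7, 73.0, 70.9 and 65.0 CPM with etoposide and at 125, 130 and 113 CPM with tozasertib. It fell by 1.06 ± 0.07 on the log2 scale with etoposide (adjusted p = 5.50e-08) and by 0.25 ± 0.08 with tozasertib (adjusted p = 0.0157). The tozasertib call was lost without tozasertib replicate 4 (adjusted p = 0.0778) and with library size as the only scaling (adjusted p = 0.0668). On the TPM scale ADM stood at 137 to 148 in DMSO and at 131 to 149 with tozasertib, which overlap. KDM3A, a histone demethylase, fell by 0.33 ± 0.08 with etoposide (adjusted p = 0.00428) although DMSO replicate 1 lay among the etoposide samples. With tozasertib its log2 fold change was -0.19 ± 0.09 (adjusted p = 0.0825), and it passed the test without DMSO replicate 1 (-0.29, adjusted p = 0.000242). ANGPTL4, a secreted regulator of lipoprotein lipase, was read at 2.31 to 5.86 CPM over all samples and passed neither test, with 0.38 ± 0.20 for etoposide (adjusted p = 0.122) and -0.44 ± 0.22 for tozasertib (adjusted p = 0.108). Those calls depended on single libraries: without etoposide replicate 4 the etoposide difference passed (0.50, adjusted p = 0.0487), and without DMSO replicate 1 the tozasertib difference did (-0.58, adjusted p = 0.0297).

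**Figure D2:**
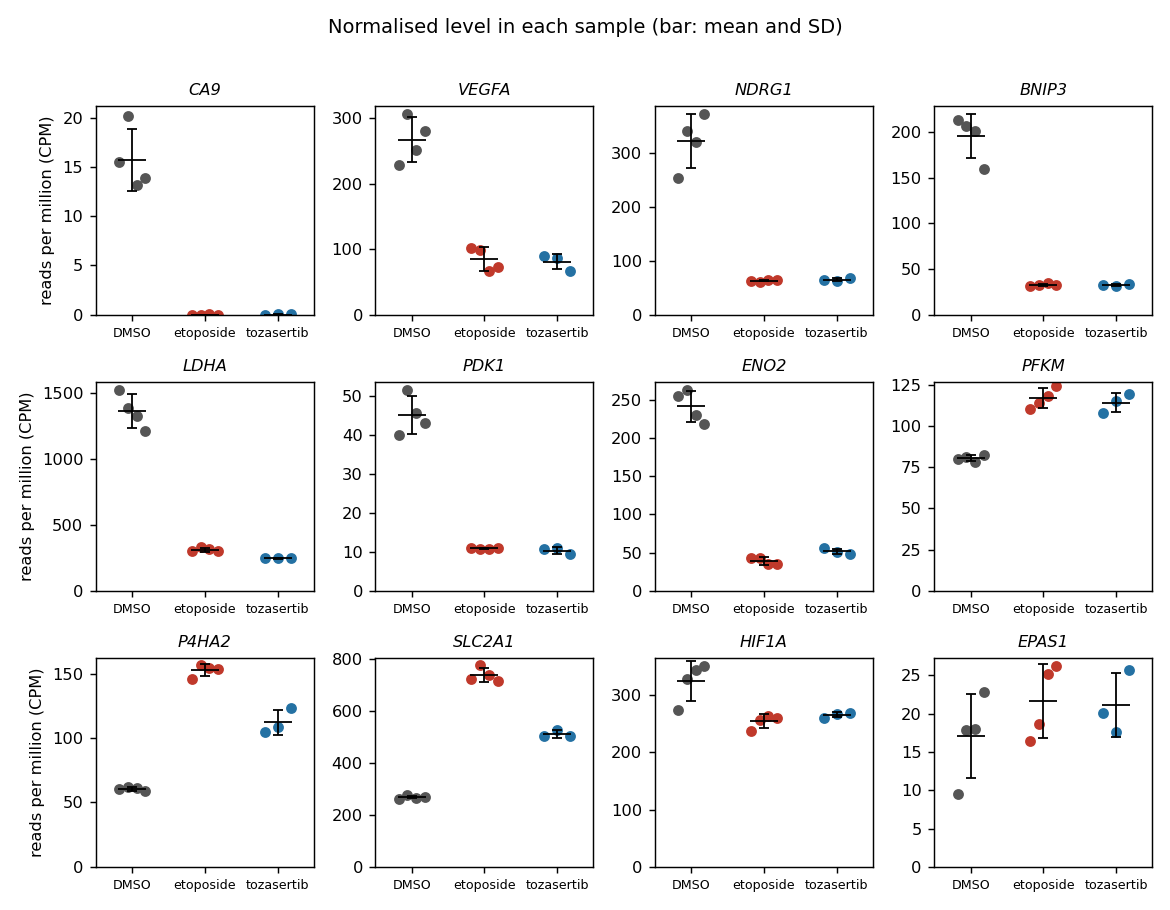
Normalised level (y axis, CPM) of 12 members in each sample, with DMSO in grey, etoposide in red and tozasertib in blue; horizontal bars give the mean and whiskers the SD. From CA9 to ENO2 the 4 DMSO samples lie above all 7 drug samples, for PFKM, P4HA2 and SLC2A1 they lie below them, and for EPAS1 the groups overlap.

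Promoter sequence was available in the RefSeq table (GRCh38.p14) for 36 of the 41 members; VHL, VEGFA, NDRG1, BNIP3L and SLC2A3 were not matched. The core ACGTG, read on both strands (as CACGT on the other), was looked for in the 250 bases before each start site. The palindrome CACGTG counts as 2 overlapping matches, and it is also the E-box that MYC and other factors bind. The core was present in 20 of the 36 members in at least 1 window, and in 21.7% of all 27305 genes of the table. Genes with several start sites have more windows, and among genes with a single window it was present in 11 of 24 members and in 18.4% of all 22114 genes. The windows of 4 members that fell and of SLC2A1, which rose, are shown because they hold the range from 5 matches to none, with the matches in capitals:

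CA9, chr9:35673678-35673927, plus strand: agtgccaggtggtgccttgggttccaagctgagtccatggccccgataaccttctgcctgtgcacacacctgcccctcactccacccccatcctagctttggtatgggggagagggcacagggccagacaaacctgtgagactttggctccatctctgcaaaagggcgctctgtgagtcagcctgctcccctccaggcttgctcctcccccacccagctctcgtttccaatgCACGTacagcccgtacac
ANKRD37, chr4:185396591-185396840, plus strand: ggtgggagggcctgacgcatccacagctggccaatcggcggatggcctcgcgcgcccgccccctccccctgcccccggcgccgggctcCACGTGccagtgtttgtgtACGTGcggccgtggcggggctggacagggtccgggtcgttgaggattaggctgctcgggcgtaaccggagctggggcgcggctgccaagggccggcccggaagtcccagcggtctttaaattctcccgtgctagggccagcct
LDHA, chr11:18394313-18394562, plus strand: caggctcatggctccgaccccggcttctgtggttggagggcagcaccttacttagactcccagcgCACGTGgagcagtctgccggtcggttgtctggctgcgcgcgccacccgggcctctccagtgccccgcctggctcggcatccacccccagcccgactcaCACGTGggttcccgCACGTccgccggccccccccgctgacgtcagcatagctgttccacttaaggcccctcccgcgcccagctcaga
ENO2, chr12:6914330-6914579, plus strand: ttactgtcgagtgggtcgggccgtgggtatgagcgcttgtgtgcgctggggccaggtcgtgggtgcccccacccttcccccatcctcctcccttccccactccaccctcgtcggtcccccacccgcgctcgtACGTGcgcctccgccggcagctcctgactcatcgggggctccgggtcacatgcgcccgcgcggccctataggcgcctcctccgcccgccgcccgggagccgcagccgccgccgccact
SLC2A1, chr1:42958869-42959118, minus strand: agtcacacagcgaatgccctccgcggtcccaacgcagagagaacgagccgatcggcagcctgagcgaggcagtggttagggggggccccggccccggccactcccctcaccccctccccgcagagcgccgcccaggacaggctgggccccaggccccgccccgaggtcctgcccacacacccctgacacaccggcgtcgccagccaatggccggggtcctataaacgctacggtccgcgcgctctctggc

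The window of CA9 held 1 match, at position -18 from the start site. ANKRD37 held 3 matches between positions -162 and -143, of which 2 overlap in a palindrome. LDHA held 5 matches between -185 and -73 in the window shown and 0 in its other window, and ENO2 held 1 match at -118. The window of SLC2A1 held 0 matches, as did those of P4HA2 and HIF1AN, which rose, and of ADM, which fell. PFKM, which rose, held 1 match, at -122, and 0 in its other windows. Other members that fell held 0 matches in every window, among them ENO1, PKM, HK1, PFKL, PGAM1 and LDHB. Whether the core goes with the direction of change was not tested. A match is a description of the letters in the window, and no binding was measured here. Other forms of the core and other stretches were not searched, so 0 matches does not show that HIF sites are absent.

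All 20 glycolytic enzymes and regulators passed the test with both drugs, and 19 of them fell, PFKM being the only one that rose. Of all genes, 30.6% fell and 27.7% rose with etoposide, and 29.4% fell and 29.9% rose with tozasertib. Summed on the TPM scale, the 20 genes held 1.83% ± 0.0273 (SD, n = 4) of all transcripts in DMSO, 0.851% ± 0.0242 (n = 4) with etoposide and 0.840% ± 0.00491 (n = 3) with tozasertib. The lowest DMSO sample, at 1.79%, lay above the highest drug sample, at 0.877%. Several of these genes, such as GAPDH, LDHA, ENO1 and PGK1, have processed pseudogenes of near-identical sequence, and how the reads were divided between them carries an uncertainty that these values do not show.

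The first steps of the chain fell with both drugs. HK2, the hexokinase that is raised in many tumours, was read at 64.2, 78.9, 76.9 and 76.1 CPM in DMSO, at 36.6, 33.7, 41.3 and 42.8 CPM with etoposide and at 41.2, 39.3 and 39.3 CPM with tozasertib. It fell by 0.94 ± 0.08 (adjusted p = 6.27e-07) and by 0.89 ± 0.09 (adjusted p = 2.70e-06) on the log2 scale. HK1, the widely expressed hexokinase, fell by 0.38 ± 0.06 and by 0.60 ± 0.07. GPI, which turns glucose 6-phosphate into fructose 6-phosphate, fell 2.11-fold with etoposide and 2.43-fold with tozasertib.

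The 3 genes of phosphofructokinase, the committed step of glycolysis, did not move together. PFKM was read at 80, 81.4, 78.4 and 82.3 CPM in DMSO, at 110, 114, 118 and 125 CPM with etoposide and at 108, 115 and 119 CPM with tozasertib, with no overlap between drug and DMSO samples. It rose by 0.54 ± 0.05 on the log2 scale with etoposide (adjusted p = 1.83e-06) and by 0.50 ± 0.06 with tozasertib (adjusted p = 7.01e-06). PFKL, the liver type, fell by 0.73 ± 0.07 and by 0.90 ± 0.08, and PFKP, the platelet type and the most abundant of the 3, fell by 0.60 ± 0.05 and by 0.55 ± 0.06. PFKM held 14.2% ± 2.42 (SD) of the summed TPM of the 3 genes in DMSO, 28.0% ± 1.78 with etoposide and 27.8% ± 1.97 with tozasertib. The bifunctional enzymes PFKFB3 and PFKFB4, which set the level of the phosphofructokinase activator fructose 2,6-bisphosphate, both fell. PFKFB3 changed by -0.39 ± 0.07 and -0.33 ± 0.08 on the log2 scale, and PFKFB4 by -0.80 ± 0.11 and -0.64 ± 0.12, and on length-scaled counts the tozasertib difference of PFKFB4 did not pass (-0.29, adjusted p = 0.0922).

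The middle of the chain holds the most abundant mRNAs. GAPDH, the most abundant member, was read at 8385, 6781, 6651 and 5950 CPM in DMSO, at 2309, 2464, 2509 and 2395 CPM with etoposide and at 2216, 2272 and 2230 CPM with tozasertib. DMSO replicate 1 was the highest sample, and the lowest DMSO sample still lay above every drug sample. GAPDH fell 2.87-fold with etoposide (adjusted p = 8.01e-09) and 3.10-fold with tozasertib (adjusted p = 1.11e-08). ALDOA, the main aldolase, fell 2.34-fold and 2.51-fold, TPI1, which interconverts the triose phosphates, 2.26-fold and 2.87-fold, and ENO1, the main enolase, 3.10-fold and 3.11-fold. PGK1, the first enzyme of the chain to make ATP, fell 1.92-fold and 1.96-fold, and PGAM1, the phosphoglycerate mutase, 1.65-fold and 1.67-fold.

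The minor aldolase and the minor enolase, both known from nerve cells, were among the steepest falls of the chain. ALDOC was read at 34.2, 32.1, 30.4 and 25.8 CPM in DMSO, at 4.84, 5.38, 6.79 and 5.62 CPM with etoposide and at 4.58, 4.66 and 5.08 CPM with tozasertib. Its log2 fold change was -2.44 ± 0.11 (adjusted p = 1.44e-09) and -2.68 ± 0.13 (adjusted p = 1.81e-09). ENO2 was read at 255, 262, 230 and 219 CPM in DMSO, at 43.4, 43.1, 34.5 and 35.6 CPM with etoposide and at 55.4, 50.7 and 48.6 CPM with tozasertib. The order of the groups was the same for every sample, DMSO above tozasertib above etoposide, and ENO2 fell by 2.62 ± 0.09 (adjusted p = 1.15e-10) and by 2.23 ± 0.10 (adjusted p = 1.12e-09) on the log2 scale.

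At the end of the chain, LDHA, the lactate dehydrogenase subunit that favours the making of lactate, was read at 1519, 1381, 1327 and 1209 CPM in DMSO, at 299, 330, 315 and 301 CPM with etoposide and at 248, 245 and 246 CPM with tozasertib. It fell 4.37-fold with etoposide (adjusted p = 6.50e-11) and 5.52-fold with tozasertib (adjusted p = 5.41e-11). LDHB, the subunit of oxidative tissues, fell 1.47-fold and 1.67-fold. The larger fall of LDHA left it with 39.4% ± 1.13 (SD) of the summed TPM of both subunits with etoposide and 37.6% ± 0.927 with tozasertib, against 65.0% ± 2.98 in DMSO, so LDHB was the more abundant subunit mRNA in all 7 drug samples and LDHA in all 4 DMSO samples. PDK1 was read at 40.0, 51.5, 45.5 and 43.0 CPM in DMSO, at 10.9, 10.7, 10.8 and 11.1 CPM with etoposide and at 10.6, 11 and 9.37 CPM with tozasertib. The drug samples lay close together and below all DMSO samples, and PDK1 fell 4.13-fold (adjusted p = 4.25e-10) and 4.36-fold (adjusted p = 8.00e-10).

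**Figure D3:**
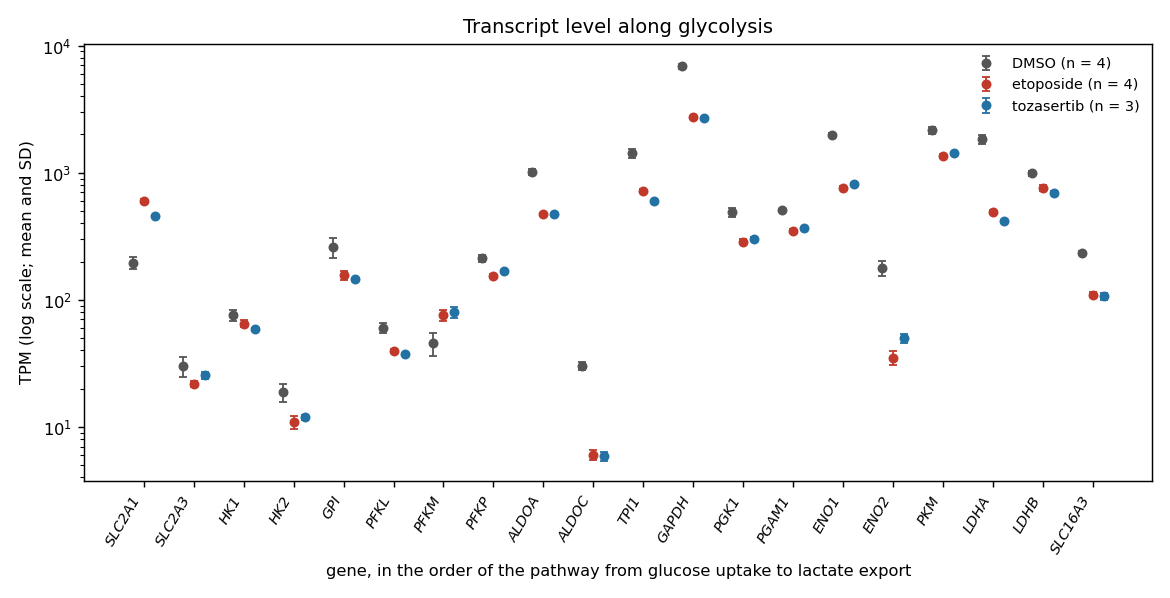
Transcript level (y axis, TPM on a log scale, mean with SD) of 20 genes in the order of the pathway from glucose uptake to lactate export, with DMSO in grey (n = 4), etoposide in red (n = 4) and tozasertib in blue (n = 3). SLC2A1 and PFKM lie higher in the drug groups, the other genes lower, and LDHA lies below LDHB only in the drug groups.

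PKM (ENSG00000067225.21, chr15:72199029-72231819, minus strand, GRCh38), the pyruvate kinase gene, was read at 3866, 3412, 3497 and 3236 CPM in DMSO, at 1786, 1876, 1975 and 1868 CPM with etoposide and at 1822, 1888 and 1854 CPM with tozasertib. It fell 1.87-fold (adjusted p = 3.46e-08) and 1.89-fold (adjusted p = 7.71e-08). Its transcripts carry either of 2 mutually exclusive exons, one for the constitutively active PKM1 form of adult muscle and brain and one for the PKM2 form of proliferating and tumour cells. The exons are both 167 bases long and are identical at 105 of them (62.9%). They are shown because within the exons, reads can tell the forms apart only at the 62 bases that differ, in capitals:

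PKM M1 exon, chr15:72203022-72203188, minus strand: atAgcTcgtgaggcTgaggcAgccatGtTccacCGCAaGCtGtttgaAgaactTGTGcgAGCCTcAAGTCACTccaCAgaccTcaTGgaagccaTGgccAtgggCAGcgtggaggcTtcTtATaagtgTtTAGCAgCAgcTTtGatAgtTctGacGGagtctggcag
PKM M2 exon, chr15:72202454-72202620, minus strand: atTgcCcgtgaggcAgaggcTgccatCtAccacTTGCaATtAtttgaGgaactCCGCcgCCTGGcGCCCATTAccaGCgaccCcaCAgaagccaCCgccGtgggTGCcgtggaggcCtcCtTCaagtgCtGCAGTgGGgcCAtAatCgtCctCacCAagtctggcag

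The release 44 annotation of GENCODE lists 5 transcripts with the M1 exon, 5 with the M2 exon and 15 with neither. PKM2 dominated in every sample. Of the reads assigned to either form, 2.1, 2.24, 2.04 and 1.99% were assigned to M1 transcripts in DMSO, 3.91, 4.20, 4.22 and 4.08% with etoposide and 4.26, 4.15 and 4.20% with tozasertib. All drug samples lay above all DMSO samples. Scaled like the gene levels, M1 reads stood at 57.3 to 78.6 CPM in DMSO, 60.6 to 73.3 CPM with etoposide and 66.0 to 67.0 CPM with tozasertib, which overlap, and M2 reads at 2821 to 3658, 1489 to 1664 and 1483 to 1538 CPM. The higher share thus went with lower M2 levels and not with separate M1 levels. The two-sided p was taken as 2 times the smaller one-sided p. The difference in share was 2.01 percentage points for etoposide (exact permutation p = 0.0286, the smallest that 4 against 4 samples can give by this rule). It was 2.11 points for tozasertib (exact permutation p = 0.0571, the smallest that 3 against 4 can give by this rule). After adjustment over the 3 comparisons both stood at p = 0.0857 (exact permutation test). With these group sizes this form of the test cannot pass 0.05, and other two-sided rules were not applied. Between the drugs the difference was 0.103 points (exact permutation p = 0.343). Reads of PKM assigned to transcripts with neither exon made up 3.34 to 11% of the total in DMSO, 11.6 to 13.3% of it with etoposide and 14 to 15% of it with tozasertib, with DMSO replicate 1 the lowest. Reads that span neither exon were divided by Salmon's model, and the error of that division was not given in the tables.

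**Figure D4:**
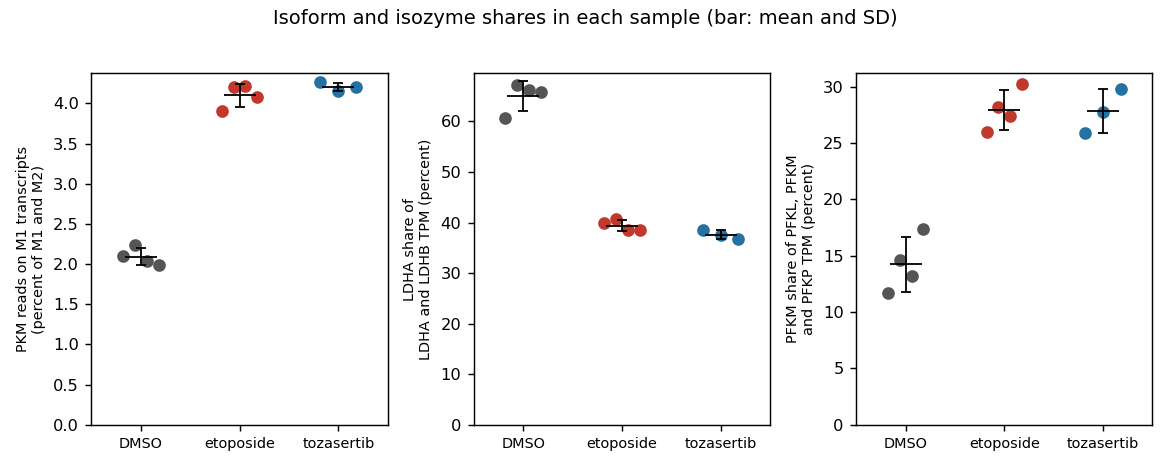
Shares in each sample (y axes, percent), with DMSO in grey, etoposide in red and tozasertib in blue, bars for the mean and whiskers for the SD: PKM reads on M1 transcripts among M1 and M2, LDHA among LDHA and LDHB on the TPM scale, and PFKM among PFKL, PFKM and PFKP on the TPM scale. The M1 share lies at 1.99 to 2.24% in DMSO and at 3.91 to 4.26% in the drug samples, and in all 3 panels the drug samples do not overlap DMSO.

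The transporters moved in opposite directions. SLC2A1 (ENSG00000117394.24, chr1:42925353-42958893, minus strand, GRCh38), the basal glucose carrier GLUT1, was read at 263, 276, 267 and 270 CPM in DMSO, at 724, 779, 737 and 716 CPM with etoposide and at 504, 528 and 502 CPM with tozasertib. The 3 groups did not overlap. SLC2A1 rose 2.75-fold with etoposide (adjusted p = 7.65e-11) and 1.9-fold with tozasertib (adjusted p = 6.21e-09). SLC2A3, the high-affinity carrier GLUT3, was read at 61.4 to 74.9 CPM in DMSO and fell by 0.68 ± 0.07 and by 0.58 ± 0.07 on the log2 scale. SLC2A1 held 86.8% ± 0.957 (SD) of the summed TPM of both carriers in DMSO, 96.5% ± 0.295 with etoposide and 94.7% ± 0.436 with tozasertib. SLC16A3, the lactate exporter MCT4, fell 2.54-fold with etoposide (adjusted p = 2.43e-08) and 2.76-fold with tozasertib (adjusted p = 2.88e-08).

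Tozasertib was compared with etoposide to ask where the drugs differ. Of the 40 tested members, 3 were higher with tozasertib, where 5.66% of all genes were, and 5 were lower, where 5.45% were, and the members' median log2 fold change was -0.07. ADM (0.81 ± 0.08, adjusted p = 2.09e-05), ENO2 (0.40 ± 0.10, adjusted p = 0.0167) and EGLN1 (0.25 ± 0.07, adjusted p = 0.0241) were higher. SLC2A1 (-0.53 ± 0.05, adjusted p = 2.30e-05), P4HA2 (-0.45 ± 0.06, adjusted p = 0.000490), LDHA (-0.34 ± 0.07, adjusted p = 0.00837), P4HA1 (-0.23 ± 0.06, adjusted p = 0.0209) and ANGPTL4 (-0.82 ± 0.22, adjusted p = 0.0305) were lower. The calls of EGLN1, ENO2, P4HA1 and ANGPTL4 were each lost when single libraries were left out, whereas those of ADM, SLC2A1, P4HA2 and LDHA were not. Without etoposide replicate 4, or without tozasertib replicate 1 or 2, 1 member was higher, without tozasertib replicate 1, 3 were lower, and without DMSO replicate 1, which enters through the shared estimate of the spread, 11 were lower. Without DMSO replicates 1 and 4, 3 were higher and 12 lower. The share of all genes called lower rose in those 2 settings as well, from 5.45% to 10.9% and 11.6%. Over all genes the split was 964 higher and 929 lower, and it moved to 1034 and 1550 with DESeq2 and to 1026 and 1765 with a gene-length offset. The share of all genes that fell over 4-fold was not counted. Of the 7 members that fell over 4-fold against DMSO with both drugs, ENO2 and LDHA passed the test between the drugs. The other 5 did not pass this test, with 95% intervals of the log2 difference of -0.17 to 0.18 for BNIP3, -0.17 to 0.23 for NDRG1, -0.26 to 0.10 for PDK1, -0.50 to 0.01 for ALDOC and -1.65 to 3.36 for CA9. The interval of CA9 rests on 1 read with etoposide and 2 reads with tozasertib, too few to compare the drugs.

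Further genes of the same pathways were taken from a list of 87 names, of which 69 passed the filter. With etoposide 21 of them rose and 29 fell, and with tozasertib 18 rose and 32 fell, with medians of -0.14 and -0.23 on the log2 scale. As shares of the 69 genes these are 30.4% and 42.0% with etoposide, where 27.7% of all genes rose and 30.6% fell, and 26.1% and 46.4% with tozasertib, where 29.9% rose and 29.4% fell. Among 30 further hypoxia targets, 8 rose and 14 fell with etoposide, and 7 rose and 16 fell with tozasertib, or 26.7% and 46.7%, and 23.3% and 53.3%. STC2, a secreted stanniocalcin, rose by 1.97 ± 0.06 (adjusted p = 7.13e-11) and 2.33 ± 0.07 (adjusted p = 3.28e-11). BHLHE41, a repressor of the circadian clock, rose by 1.12 ± 0.11 with etoposide (adjusted p = 1.18e-06) and 0.75 ± 0.11 with tozasertib (adjusted p = 8.47e-05). ZNF395 fell by 1.53 ± 0.06 and by 1.43 ± 0.06, the lipoprotein receptor gene VLDLR by 1.78 ± 0.09 and by 1.58 ± 0.09, and the collagen lysyl hydroxylase gene PLOD2 by 0.91 ± 0.06 and by 0.93 ± 0.07.

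Among 27 further genes of glycolysis and pyruvate metabolism, 11 rose and 10 fell with etoposide, and 10 rose and 11 fell with tozasertib, which is 40.7% and 37% of them for etoposide and 37% and 40.7% for tozasertib, beside the same shares of all genes. TIGAR, a p53 target that lowers fructose 2,6-bisphosphate, rose by 1.13 ± 0.05 (adjusted p = 6.04e-10) and 1.32 ± 0.05 (adjusted p = 3.01e-10). PDP1, the phosphatase that opposes the PDK kinases, rose by 0.61 ± 0.06 and 0.69 ± 0.06. The PDK kinases did not move together: PDK2 rose by 1.03 ± 0.06 with etoposide (adjusted p = 1.69e-08) and 0.73 ± 0.07 with tozasertib (adjusted p = 9.19e-07), while PDK3 fell by 1.54 ± 0.13 and by 1.48 ± 0.14, beside the fall of PDK1. PC, which feeds pyruvate into the citrate cycle as oxaloacetate, fell by 1.52 ± 0.08 and by 1.62 ± 0.09, and PDHA1, a subunit of pyruvate dehydrogenase, by 0.48 ± 0.06 and by 0.55 ± 0.06. TXNIP, which restrains glucose uptake, rose by 1.49 ± 0.14 with etoposide (adjusted p = 1.06e-06) and 1.66 ± 0.15 with tozasertib (adjusted p = 7.07e-07). Among 12 further HIF subunits and cofactors, 2 rose and 5 fell with etoposide and 1 rose and 5 fell with tozasertib, or 16.7% and 41.7%, and 8.33% and 41.7%. CITED2, which competes with HIF alpha for its coactivator, rose by 0.49 ± 0.09 and 0.33 ± 0.10, and SIAH2, a ubiquitin ligase for the EGLN enzymes, fell by 0.56 ± 0.07 and by 0.59 ± 0.07. Between the drugs, 4 of the 69 genes (5.80%) were higher with tozasertib and 5 (7.25%) lower, near the 5.66% and 5.45% of all genes, with STC2 (0.36 ± 0.07, adjusted p = 0.00389) among the former and AK4 (-0.57 ± 0.12, adjusted p = 0.00947), a mitochondrial adenylate kinase, among the latter.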

How the data were processed

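The authors made strand-specific libraries from poly(A)-selected RNA. Per the submitters' processing notes, reads were handled on GRCh38 with Salmon 1.9.0, cutadapt 4.7, DESeq2 1.40.2 and R 4.4.2, whereas the study's methods name the aligner STAR. The file headers are those of Salmon, and the transcript set release is not given in the sources used here. Each deposited table holds, per transcript, the authors' estimated counts (not normalized), TPM and the effective length.

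Transcripts were joined to genes with GENCODE release 44. Of 251645 transcripts, 907 had no match and held at most 0.359% of a sample's reads. Estimated counts were summed per gene, rounded, filtered with filterByExpr and tested with edgeR 4.0.16 in R 4.3.3 (TMM, quasi-likelihood, two-sided, 1 mean per group over all 11 samples, Benjamini-Hochberg threshold 0.05). Errors of fold changes are standard errors, worked out as the absolute log2 fold change over the square root of the test's F statistic. The 95% intervals of log2 differences use normal quantiles, which can be too narrow with few samples. On counts simulated for etoposide against DMSO over 17033 genes, 50% of changes of 0.5 and 83% of changes of 1 on the log2 scale were recovered. The simulation changed 100 genes by each size, whereas 4712 genes were called higher and 5218 lower in the data. Adjustment for many tests is stricter where fewer genes change, so these shares do not give the power of the real comparison. No replicates agreed within sampling noise.

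The members and lists were chosen with earlier results of these data known. HIF1A, EPAS1, VHL, CA9, VEGFA, SLC2A1, HK2, GAPDH, PKM, LDHA and PDK1 were given per sample whatever their values, together with up to 5 called members with the largest rise and 5 with the largest fall against DMSO and 3 each between the drugs, at 5 CPM or more in a group. Further pathway genes were up to 3 per direction and list with the smallest adjusted p. One gene that this rule names is not reported here. Alternatives were DESeq2 1.42.0, other scalings, no filter, length-scaled counts, a gene-length offset, a replicate block and leaving out replicates. The setting without DMSO replicates 1 and 4 was chosen after seeing the data.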

Additional observations from a re-analysis of the deposited data

Results flagged for a closer look

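Among 80 groups of 4 samples, each a member gene in DMSO or etoposide, 1 held a sample whose gap to its nearest neighbour exceeded the 95% critical value of Dixon's test, which chance gives for about 1 group in 20. It was CA9 in etoposide replicate 3, at 0.0282 CPM beside 0 in the other 3 etoposide samples, which is a single read.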

How the results depend on the processing

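Against DMSO, the number of members called higher or lower stayed within 1.5 times its value under every alternative, and no called member changed sign in any comparison. With etoposide 4 to 5 members were higher and 33 lower without single replicates, and with tozasertib 4 were higher and 31 to 34 lower. The median of the members moved by more than the spread between samples to -0.82 with length-scaled counts (etoposide), and to -0.80 with library size alone and -0.95 with a gene-length offset (tozasertib). Tozasertib against etoposide was less stable: members called lower numbered 8 with DESeq2 size factors, 10 with DESeq2, 9 with a gene-length offset, 10 with only the groups compared and 12 without DMSO replicates 1 and 4, against 5, and their median was -0.12 with the offset and -0.11 with the offset and the replicate block. Without single replicates, 1 to 3 were higher and 3 to 11 lower. Counted over single members and all settings, 3 calls were gained with etoposide, 8 gained and 4 lost with tozasertib, and 40 gained and 23 lost between the drugs. The causes were not tested.

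By the rule that every same-numbered pair must correlate above 0.1, the numbers did not pair the samples. Over 10 pairs the correlation ran from -0.09 to 0.23, with 2 above 0.1. A sample correlated best with its own number in 6 of 20 cases. Between the drugs alone, the same-numbered pairs stood at 0.23, 0.09 and 0.12 for replicates 1, 2 and 4. Differently numbered drug pairs ran from -0.21 to 0.16. Whether the drug samples were paired in part was not tested, and the main test took no account of the numbers. With a replicate block, 33 members were lower and 4 higher with etoposide, 32 lower and 4 higher with tozasertib, and 4 lower and 3 higher between the drugs. The difference in the PKM1 share kept its sign without single replicates, at 1.97 to 2.07, 2.08 to 2.16 and 0.039 to 0.141 percentage points, and was 2.85, 3.00 and 0.157 points as a share of TPM. Depth limits EGLN3 and the drug levels of CA9.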
